A study of Rattus norvegicus with 6 samples.

Results

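p53 is a transcription factor that halts the cell cycle, aids repair and slows growth when a cell is stressed, and at higher activity starts cell death. It is held low by Mdm2, a ubiquitin ligase that marks it for destruction, and by Mdm4, a related protein that masks its activating region. Its arrest and stress targets act on cyclin-dependent kinases, on messenger RNA decay, on growth signalling through mTOR and Akt, and on splicing. In the oligodendrocyte lineage, arrest of precursor division precedes differentiation.

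The 9 genes described here are the regulators Mdm2 and Mdm4, the growth arrest targets Ccng1, Gadd45a and Btg2, and the stress targets Sesn1, Sesn2, Zmat3 and Phlda3. They were chosen by gene name from a table of 32883 genes, and each name matched 1 row. All 9 passed the filter on low counts that left 14670 genes for testing. The cells were primary oligodendrocyte precursor cells (OPCs) from the cortices of P0 Sprague Dawley rats, 2 per preparation, freed from mixed cultures by shaking. They received 5 µM ZJU-37, a RIPK1 kinase inhibitor modified from Nec-1s, or an equal volume of its solvent DMSO, for 36 h by the labels, while the methods give another time. Each group held 3 poly-A RNA libraries. They are called biological repeats in the methods and plate wells in a legend, so the p-values may measure technical spread.

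Library totals ran from 13935865 to 24097927 counts, at which 3 counts equal 0.124 to 0.215 CPM (here counts scaled to the library total), covering counting error only. All gene and marker levels in CPM instead use the total over the tested genes, adjusted by the TMM scaling factor. OPC markers were present at a summed 3857 to 4476 CPM in DMSO and 4411 to 6075 CPM in ZJU-37, with 4 of 7 higher and 2 lower. Oligodendrocyte markers summed to 12864 to 24407 CPM in DMSO and 5066 to 10187 CPM in ZJU-37, with 3 of 8 lower. Genes of more mature cells such as Mbp were thus abundant in both groups. Microglial markers summed to 1666 to 2861 CPM against 1209 to 2469 CPM and astrocyte markers to 418.5 to 767.9 CPM against 261.6 to 483.4 CPM. Neuronal markers gave 702.5 to 904.6 CPM against 612.8 to 827.1 CPM, and fibroblast and vessel markers 71.9 to 119.6 CPM against 37.3 to 94.9 CPM. Of these 4 lists, 1 of 6 astrocyte markers was called, lower, and 0 of the others. With the replicate number as a block, 6 of 8 oligodendrocyte, 4 of 6 astrocyte, 3 of 8 microglial, 2 of 7 neuronal and 2 of 6 fibroblast and vessel markers were called, all lower. Among all tested genes 15.0% were called without the block (9.43% higher, 5.58% lower) and 32.1% with it (16.2% higher, 15.9% lower). The vessel marker Cldn5 was at 0 in every library. All 8 markers of dividing cells were higher with ZJU-37, at 1561 to 1883 CPM against 660.1 to 717.1 CPM. The part of these shifts in the results below was not tested. In bulk RNA, fewer cells of a type and less RNA per cell cannot be told apart.

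Promoter sequences of 8 of the 9 members were found in RefSeq (GRCr8). Those of 3 of the 4 members that passed the test are shown, as the 250 bases before the start site, because they hold the upstream letters of the genes that changed. Capitals mark a p53 consensus half-site (GGGCTAGCCC in Gadd45a and GGGCAAGCCT in Ccng1), the octamer ATTTGCAT or a CCAAT box on either strand. The Phlda3 window had none of them. They are Gadd45a at chr4:97486800-97487049 on the minus strand, Ccng1 at chr10:25684877-25685126 on the minus strand and Phlda3 at chr13:49744753-49745002 on the plus strand.
Gadd45a: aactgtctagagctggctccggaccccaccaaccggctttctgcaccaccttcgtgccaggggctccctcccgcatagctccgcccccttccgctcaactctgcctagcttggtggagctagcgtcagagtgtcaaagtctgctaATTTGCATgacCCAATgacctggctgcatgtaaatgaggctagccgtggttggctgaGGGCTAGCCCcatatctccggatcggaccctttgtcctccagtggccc
Ccng1: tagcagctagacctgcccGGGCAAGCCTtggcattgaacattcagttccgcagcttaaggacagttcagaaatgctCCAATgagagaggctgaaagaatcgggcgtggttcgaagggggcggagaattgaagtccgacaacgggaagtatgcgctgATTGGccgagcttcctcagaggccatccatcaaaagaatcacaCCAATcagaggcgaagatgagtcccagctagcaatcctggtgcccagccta
Phlda3: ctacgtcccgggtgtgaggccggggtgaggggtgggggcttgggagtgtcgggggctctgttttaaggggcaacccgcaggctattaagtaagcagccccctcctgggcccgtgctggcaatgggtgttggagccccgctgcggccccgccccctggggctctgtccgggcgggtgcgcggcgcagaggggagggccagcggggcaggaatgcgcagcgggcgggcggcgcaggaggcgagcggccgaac
A shorter window of Sesn1 is shown for the remaining half-site, and one of Btg2 for its cAMP response element TGACGTCA, each in capitals.
Sesn1: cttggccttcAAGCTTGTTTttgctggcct
Btg2: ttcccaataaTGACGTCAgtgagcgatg

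Searched on both strands from 250 bases before to 50 after the start, the exact p53 consensus half-site was found in 3 of the 8 members, against 7.98% of 33469 promoters. Its first base lay at -48 in Gadd45a, -232 in Ccng1 and -172 in Sesn1. Of these 3 genes, Gadd45a fell, Ccng1 rose and Sesn1 did not pass the test. A full site of 2 half-sites was in none of the 8 and in 0.0598% of all promoters. The other motifs were chosen after the values had been seen. The cAMP response element stood in Btg2 alone (1.83% of all promoters), the octamer in Gadd45a alone (1.78%), a CCAAT box in 6 of 8 (37.5%) and a GC box, GGGCGG, in 8 of 8 (33.1%). These are matches of letters, which do not show binding.

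Between ZJU-37 and DMSO, Zmat3, Ccng1 and Phlda3 rose and Gadd45a fell, while Mdm2, Mdm4, Sesn1, Sesn2 and Btg2 did not pass the test. Thus 4 of the 9 members were called at an adjusted p under 0.05 by edgeR's quasi-likelihood test, 3 higher and 1 lower. Among all tested genes 15.0% were called, 9.43% higher and 5.58% lower. The median log2 fold change was 0.15 over the members and -0.03 over all tested genes. In the same 4 members the libraries of the groups did not overlap, with 3 higher and 1 lower, where 19.0% of all tested genes stood apart higher and 16.2% lower. Replicate numbers were taken to pair the libraries, on the basis of these same data. With the number as a block 5 of 9 were called, 4 higher and 1 lower, against 32.1% of all genes (16.2% higher, 15.9% lower). Btg2 was the added member. Without DMSO replicate 2, and likewise without ZJU-37 replicate 3, only 1 of the 9, Zmat3, was called. Calls over all genes fell too, to 1306 of 14940 and 1351 of 14877 in these fits, from 2201 of 14670.

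**Figure D1:**
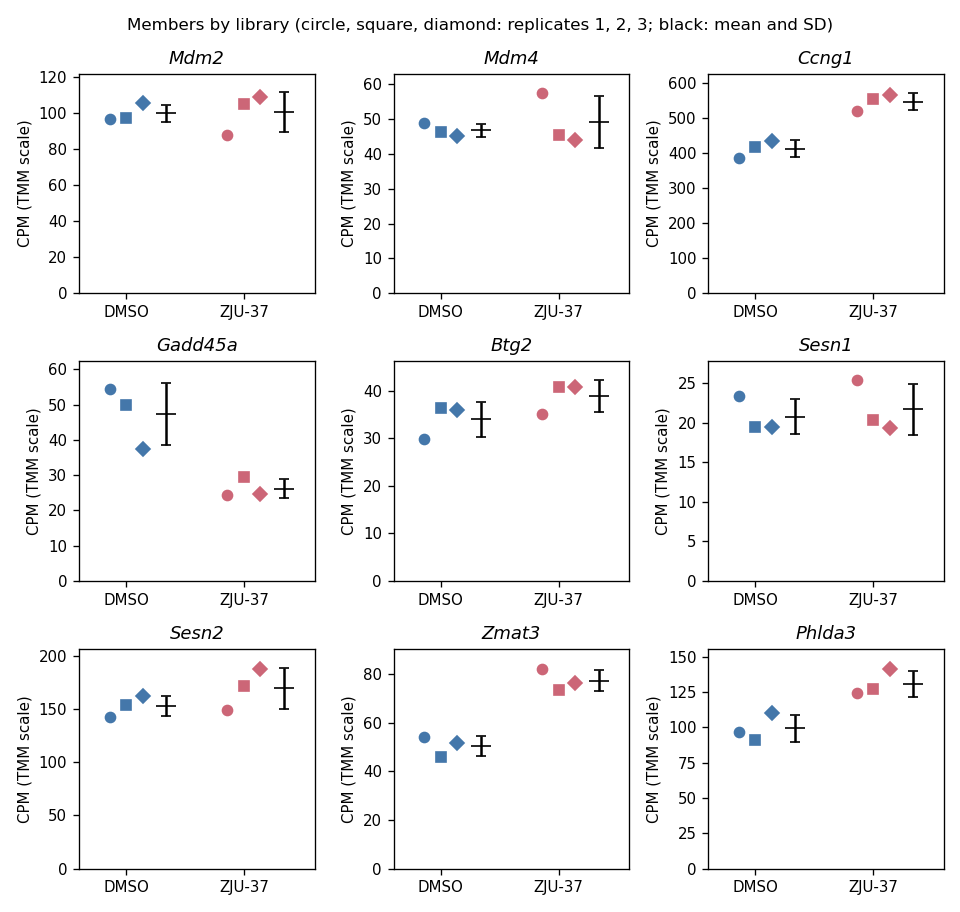
Level of each of the 9 members in CPM on the TMM scale (vertical axis from 0) in the 3 DMSO libraries (blue) and the 3 ZJU-37 libraries (pink), with circle, square and diamond for replicates 1, 2 and 3 and black bars for mean and SD. The groups stand apart in Ccng1, Zmat3 and Phlda3 (higher) and in Gadd45a (lower), and overlap in the other 5.

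Mdm2 showed no difference that the test could detect. Replicates 1, 2 and 3, in that order here and below, stood at 96.8, 97.4 and 105.3 CPM for DMSO and at 87.8, 104.9 and 108.6 CPM for ZJU-37. The lowest and the highest library were both ZJU-37 libraries, so the DMSO values lay within the ZJU-37 range. ZJU-37 differed from DMSO by a log2 fold change of 0.01 ± 0.09 (SE, n = 3 per group; 95% interval -0.21 to 0.23), and edgeR gave an adjusted p of 0.963. That interval spans 0.865-fold to 1.17-fold. Its sign turned when DMSO replicate 1 or 2 or ZJU-37 replicate 3 was left out.

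Mdm4 was measured at 48.8, 46.3 and 45.0 CPM in DMSO and 57.5, 45.5 and 43.9 CPM in ZJU-37. Only ZJU-37 replicate 1 lay above the DMSO range, and the groups overlapped. The log2 fold change was 0.07 ± 0.11 (95% interval -0.20 to 0.34), with an adjusted p of 0.748 in edgeR, and it was -0.04 without ZJU-37 replicate 1.

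Ccng1, which encodes cyclin G1, a partner of protein phosphatase 2A, was the most abundant member. It lay at 384.5, 417.8 and 432.6 CPM in DMSO and at 518.0, 554.3 and 564.6 CPM in ZJU-37. Every ZJU-37 library was above every DMSO library. The rise was 1.33-fold (0.41 ± 0.07 on the log2 scale, edgeR adjusted p = 0.0124). Within the replicate pairs the log2 difference was 0.43, 0.41 and 0.38, so the increase was of nearly the same size in each. The call was lost without ZJU-37 replicate 3 (adjusted p = 0.0556) and without DMSO replicate 2 (0.05), at log2 fold changes of 0.41 and 0.42. In the coordinates of the table, whose build is not given in the sources used here, the gene covers chr10:25903911-25910325 on the minus strand.

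Gadd45a, a small acidic protein that binds PCNA and feeds stress kinases, was the one member that fell. Its levels were 54.5, 49.8 and 37.5 CPM in DMSO and 24.5, 29.4 and 24.7 CPM in ZJU-37. DMSO replicate 3 was nearest to the ZJU-37 libraries but still above all of them. The log2 fold change was -0.85 ± 0.15, a level 0.555 times that of DMSO, with an adjusted p of 0.0122 in edgeR. The drop differed between pairs, at -1.15, -0.76 and -0.60 on the log2 scale, and the DMSO libraries had the widest spread of all members (coefficient of variation 18.5%). The adjusted p was 0.0515 without DMSO replicate 2 and 0.0504 without ZJU-37 replicate 3. The gene lies at chr4:97782512-97784842 in the table.

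Btg2, an antiproliferative protein that recruits the deadenylase complex to messenger RNA, depended on the pairing. It measured 29.8, 36.3 and 35.9 CPM in DMSO and 35.1, 40.8 and 40.8 CPM in ZJU-37. ZJU-37 replicate 1 lay below DMSO replicates 2 and 3, so the groups overlapped, yet ZJU-37 was higher in all 3 pairs. Its log2 fold change was 0.19 ± 0.11, with an edgeR adjusted p of 0.294, or 0.0395 with the replicate block. The blocked call was lost without replicate number 2 (adjusted p = 0.132 in edgeR) or number 3 (0.203).

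Zmat3, a zinc finger protein that binds RNA and alters splicing, rose furthest. It lay at 54.0, 45.9 and 51.7 CPM in DMSO and at 82.0, 73.5 and 76.3 CPM in ZJU-37. The lowest ZJU-37 library stood well above the highest DMSO library. The rise was 1.53-fold (log2 fold change 0.61 ± 0.08, adjusted p = 0.00355 in edgeR), and pairs differed by 0.60, 0.68 and 0.56. It was the only called member whose call held with each of the 6 libraries left out in turn, with an adjusted p of at most 0.0179. The gene lies at chr2:118721334-118745766 in the table.

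Phlda3, which competes with the kinase Akt for membrane lipids, rose 1.32-fold. Its values were 96.7, 91.2 and 109.8 CPM in DMSO and 124.4, 126.8 and 141.4 CPM in ZJU-37. The groups did not overlap, and DMSO replicate 3 was the closest. On the log2 scale the rise was 0.40 ± 0.09 (edgeR adjusted p = 0.0278). The call was lost in 3 fits, with an adjusted p of 0.0875 without DMSO replicate 1, 0.1 without DMSO replicate 2 and 0.0871 without ZJU-37 replicate 3. The gene lies at chr13:52588917-52592001, and with Mdm4 and Btg2 it falls within 2799 kb of chromosome 13.

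The sestrins, which restrain the growth kinase complex mTORC1, did not pass the test. Sesn2, also a sensor of leucine, lay at 142.8, 153.5 and 162.1 CPM in DMSO and 149.2, 171.7 and 188.0 CPM in ZJU-37. Its groups overlapped, although ZJU-37 was higher in all 3 pairs. The log2 fold change was 0.15 ± 0.10 (95% interval -0.08 to 0.38), with an adjusted p of 0.380 in edgeR and 0.0577 with the block. Sesn1 was the least abundant member, at 23.4, 19.5 and 19.5 CPM in DMSO and 25.4, 20.4 and 19.3 CPM in ZJU-37. Replicate 1 was the highest in both groups. The log2 fold change of Sesn1 was 0.06 ± 0.14 (95% interval -0.26 to 0.38) with an adjusted p of 0.810 in edgeR, and -0.04 without ZJU-37 replicate 1. Sesn1 overlaps a gene that holds 3 counts in all.

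**Figure D2:**
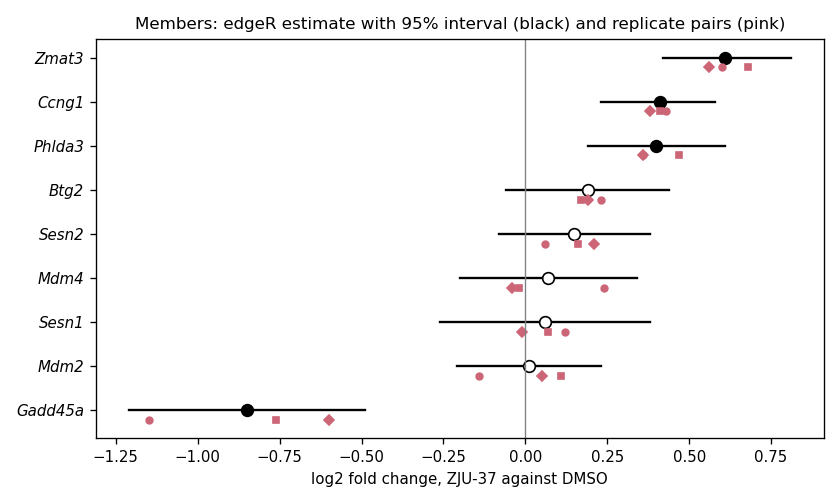
Log2 fold change of each member, ZJU-37 against DMSO (horizontal axis), as the edgeR estimate with its 95% interval (black, filled where the adjusted p is under 0.05) and as the difference within replicate pairs 1, 2 and 3 (pink circle, square and diamond). Zmat3, Ccng1, Phlda3, Btg2 and Sesn2 were higher in all 3 pairs, Gadd45a was lower in all 3, and Mdm2, Mdm4 and Sesn1 were mixed.

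An exact two-sided permutation test of 3 against 3 libraries cannot go below 0.1. Groups that do not overlap always give that value, so it only repeats the separation reported above. Of all tested genes, 19.0% stood apart higher and 16.2% lower. The permutation p was at that value for Ccng1, Gadd45a, Zmat3 and Phlda3. It was 0.3 for Btg2 and Sesn2, 0.7 for Sesn1, 0.9 for Mdm4 and 1.0 for Mdm2.

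The 2 members with the largest changes moved in opposite directions. Zmat3 and Gadd45a are compared within a library, which needs no scaling between libraries, and were chosen for this after their values had been seen. In DMSO there were 0.991, 0.922 and 1.38 Zmat3 counts per Gadd45a count, and in ZJU-37 there were 3.34, 2.5 and 3.09. The ratio was highest among DMSO libraries in replicate 3, where Gadd45a was lowest, and every ZJU-37 library lay above it.

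**Figure D3:**
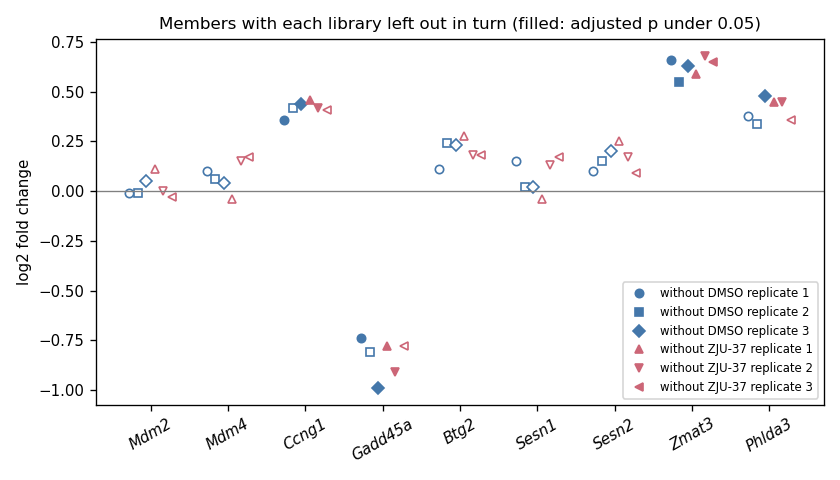
Log2 fold change of each member (vertical axis) with each library left out in turn, blue where a DMSO library and pink where a ZJU-37 library was left out, filled where the adjusted p stayed under 0.05. Zmat3 is filled in all 6 fits, Ccng1 and Gadd45a in 4, Phlda3 in 3, and Mdm2, Mdm4 and Sesn1 lie on both sides of 0.

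Scaled by gene length, the members covered a wide range of levels. In DMSO, Ccng1 was first with 127.1 CPM per kb, ahead of Phlda3 with 69.8 CPM per kb. Sesn2 (40.9 CPM per kb), Zmat3 (39.4 CPM per kb), Gadd45a (38.1 CPM per kb) and Mdm2 (34.1 CPM per kb) followed, and neighbours among these 4 did not differ beyond their spread. Mdm4 (24.6 CPM per kb), Btg2 (13.3 CPM per kb) and Sesn1 (6.03 CPM per kb) came last. In ZJU-37 the order changed in the middle. Zmat3 passed Sesn2 with 60.2 CPM per kb, and Gadd45a fell behind Mdm2 and Mdm4 to 21.1 CPM per kb. Ccng1 lay at the 96.5 percentile of the tested genes and Sesn1 at the 34.3 percentile, by mean CPM per kb.

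Of 49 other genes listed for the p53 pathway, 45 were in the table and 40 were tested. Among these 40, 9 were higher and 2 lower, 27.5% called in all, with a median log2 fold change of 0.16. With the replicate block 20 were called, 16 higher and 4 lower. The shares over all tested genes were 15.0% without the block (9.43% higher, 5.58% lower) and 32.1% with it (16.2% higher, 15.9% lower). These shares are also those to set beside the counts of each list below. The genes Chek1, Ak1, Bbc3 and Tnfrsf10b were not matched by name, and Sfn, Spata18, Perp, Pidd1 and Triap1 did not pass the filter.

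Of 11 other regulators of p53, 2 were higher and 1 lower, with a median of 0.08, and with the block 3 were higher and 2 lower. Atr, a kinase that senses stalled replication, rose by 0.50 ± 0.09 (adjusted p = 0.0118 in edgeR). Chek2, a checkpoint kinase, had a log2 fold change of 0.47 ± 0.12 (adjusted p = 0.0440). The Chek2 call was lost whichever library was left out, with an adjusted p up to 0.126. Hipk2, a kinase that phosphorylates p53, fell by 0.85 on the log2 scale, from 258.3 ± 35.6 to 143.3 ± 14.7 CPM (SD, n = 3 each).

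Of 21 further arrest, repair and metabolic targets, 4 were higher and 1 lower, with a median of 0.05, and with the block 8 were higher and 2 lower. Ckap2 (log2 fold change 1.39) and Gtse1 (1.30) rose furthest, and both encode microtubule-associated proteins made mainly in dividing cells. The markers of dividing cells rose beside them, 8 of 8. The ribosomal protein gene Rps27l (0.56) and Tp53i11 (0.44) also rose, although the latter had an adjusted p up to 0.0648 when DMSO replicate 1 or 2 or ZJU-37 replicate 3 was left out. Zfp365 fell by 1.59 on the log2 scale, from 126.0 ± 18.8 to 41.8 ± 2.56 CPM.

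Of 8 death targets, 3 were higher and none was lower, with a median of 0.25, and with the block 5 were higher. The receptor gene Eda2r rose from 11.1 ± 0.623 to 26.0 ± 3.59 CPM (log2 fold change 1.23). The nuclease Aen rose by 0.54 on the log2 scale. Pmaip1, which encodes the BH3-only protein Noxa, had a log2 fold change of 0.75 (adjusted p = 0.0227 in edgeR), but its adjusted p went up to 0.0718 without single libraries (DMSO replicates 1 and 2 and each ZJU-37 replicate).

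**Figure D4:**
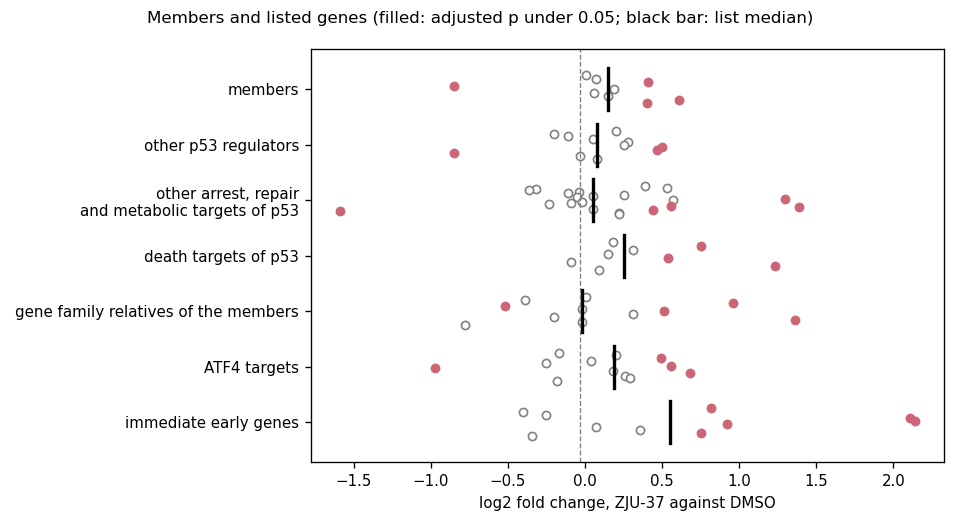
Log2 fold change (horizontal axis), ZJU-37 against DMSO, of every tested gene of the members and 6 lists (rows), filled where the edgeR adjusted p is under 0.05, with a black bar at each list median and a dashed line at the median of all tested genes (-0.03). Medians ran from -0.02 (family relatives) to 0.55 (immediate early genes), and every list but death targets and immediate early genes held called genes on both sides of 0.

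Family relatives of the members went in both directions. Of 11 tested relatives, 3 were higher and 1 lower, with a median of -0.02, and with the block 4 were higher and 3 lower. Gadd45g rose from 23.7 ± 1.23 to 46.2 ± 8.20 CPM (log2 fold change 0.96), where Gadd45a fell, and Gadd45b had a log2 fold change of -0.39 (adjusted p = 0.197 in edgeR, 0.0396 with the block). Phlda1, a relative of Phlda3, rose by 1.36 on the log2 scale. Sesn3 fell by 0.52, and Btg3 had a log2 fold change of 0.51 (adjusted p = 0.0344), lost in 5 of the 6 fits that left out a library (all but that without ZJU-37 replicate 2), with an adjusted p up to 0.112. Ccng2, the relative of Ccng1, measured 46.4 ± 1.07 CPM in DMSO and 46.9 ± 3.54 CPM in ZJU-37 (adjusted p = 0.923).

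Other factors also act on some members, so 2 further lists are given. Of 12 targets of ATF4, the amino acid stress factor that also acts on Sesn2, 3 were higher and 1 lower, with a median of 0.19, and with the block 6 were higher and 1 lower. Ddit4, an inhibitor of mTORC1, fell by 0.97 on the log2 scale, while the serine synthesis gene Phgdh rose by 0.68. Atf5 (0.56) and Asns (0.49) were called as well. Their calls were lost without single libraries, Atf5 without any DMSO replicate (adjusted p up to 0.0596) and Asns without any DMSO replicate or ZJU-37 replicate 2 or 3 (up to 0.0918). Of 10 immediate early genes, transcription factors and regulators induced quickly by growth factors, 5 were higher and none lower, with a median of 0.55. Egr2 (2.14), Egr1 (2.11), Ier2 (0.92), Fos (0.82) and Nr4a1 (0.75) rose.

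The genes most like Mdm2 over the 6 libraries, by Pearson's r of log2 CPM among the 10300 genes averaging 10 CPM or more, were Ino80e (r = 0.9927), Abhd5 (0.9919) and Rsad2 (0.9919). For Gadd45a they were RGD1305938 (0.9998), Clk1 (0.9978) and Golga7 (0.9956). There were 67 genes at r of at least 0.95 with Mdm2 and 350 with Gadd45a. These are descriptions over 6 libraries that share their groups, chosen as the highest of many.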

How the data were processed

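Poly-A RNA of cultured rat OPCs was sequenced in 3 DMSO and 3 ZJU-37 libraries. The submitters' processing notes name HISAT2 2.0.5, StringTie 1.3.3b and featureCounts 1.5.0; the genome build and the strand setting of counting are not given in the sources used here. The authors deposited raw counts per gene, which are neither normalized nor filtered, with FPKM values and their own comparison (fold changes and p-values), which were not used. Genes were filtered with filterByExpr, scaled by TMM (factors 0.981 to 1.04) and tested with edgeR 4.0.16 (glmQLFit, robust) in R 4.3.3 over all 14670 genes, with Benjamini-Hochberg adjustment at 0.05. Standard errors come from the fold change and its F statistic. The scripts were tested on simulated data.

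Same-numbered libraries deviated together from their group means (r = 0.39, 0.31 and 0.33 across genes, against -0.27 to -0.01 for other numbers), so the numbers, from the sample titles, were taken to pair the libraries. Between libraries chi-square per degree of freedom was at least 11.3, so none was a duplicate. The labels name no batch.

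The members and lists were chosen with earlier results of these data known. All members were named, and of each list the called genes, up to the 5 with the largest change, plus relatives of a described member. For Mdm2 and the called member of largest change, the 3 most correlated genes were named. Alternatives were RLE or library-size scaling, DESeq2 1.42.0, limma-voom 3.58.1, no filter or at least 10 counts in every library, thinning to 13935865 counts, the replicate block, leaving out each library, and a threshold of 0.01. The block without each replicate number was added after the data were seen.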

Additional observations from a re-analysis of the deposited data

How the results depend on the processing

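Of the 4 called members, Zmat3 kept its call in all 17 alternatives with a fold change (log2 fold change 0.55 to 0.68). Ccng1, Gadd45a and Phlda3 kept their direction in all 17 and lost their calls only when a library was left out or the threshold was lowered to 0.01. Leaving out each library gave 1 to 4 called members, 1 to 3 higher and 0 to 1 lower. Calls over all genes in these fits ran from 1306 of 14940 to 1927 of 14904, against 2201 of 14670 in the main fit. At an adjusted p under 0.01, 1 member was called, 1 higher and 0 lower, and 7 of the listed pathway genes. The replicate block called 20 listed pathway genes, against 11 without it, and of the members it changed only the call of Btg2. Over all tested genes the block called 32.1%, against 15.0% without it. In the blocked fit without replicate number 1, an alternative chosen after seeing the data, 5 members were called higher and 22 pathway genes were called. Over all genes that fit called 4885 of 14827. Sesn2 had an adjusted p of 0.00259 in edgeR there, and Mdm4 had a log2 fold change of -0.02. The blocked fits without number 2 and without number 3 each called 3 members higher, and 16 and 14 pathway genes. Calls over all genes in these 2 fits were 3373 of 14757 and 2461 of 14723. Btg2 lost its blocked call in both (adjusted p = 0.132 and 0.203 in edgeR). Mdm2 was at -0.05 in the blocked fit without replicate number 2 and at -0.02 without number 3. With single libraries left out, Mdm2 ran from -0.03 to 0.11, Mdm4 from -0.04 to 0.17 and Sesn1 from -0.04 to 0.17. None of these 3 was called under any alternative. Chek2 also lost its call with limma-voom, without the filter and after thinning (adjusted p 0.0526, 0.0595 and 0.0505), the cause of which was not tested. The blocked fit without replicate number 2 did not call Chek2 either (adjusted p = 0.0794 in edgeR).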
